A study of Mus musculus with 6 samples.

Results

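The 10 genomic loci described here are stretches of the mouse genome in which neighbouring intervals carried more small RNA in Dnmt3l knockout (KO) than in wild type (WT) male germ cells at postnatal day 8 (P8). They lie at chr2:30360001-30620000, chr2:180700001-180890000, chr8:13740001-13810000, chr9:102360001-102430000, chr10:81150001-81270000, chr11:94010001-94180000, chr14:34260001-34370000, chr15:83090001-83150000, chr16:31180001-31420000 and chr18:38270001-38420000, with coordinates counted from 1 on GRCm39. The windows were picked from their KO and WT levels at P8, so every P8 difference below is a description of the choice and carries no test. They wholly contained 2586 of the 1272548 deposited intervals. Many deposited intervals overlap and count the same read more than once. The sums below therefore use a set of non-overlapping intervals, taken by the highest mean level over all 6 libraries, which held 105 intervals with a read in the loci of 88221 in the whole table.

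DNMT3L has no methyltransferase activity of its own, but binds the enzymes that methylate DNA de novo and is needed for DNA methylation to be laid down in male germ cells before birth. PIWI-interacting RNAs (piRNAs) are small RNAs of the germline, many of them cut from long single-stranded precursors, so that 1 precursor gives reads along a long stretch of the genome. In mouse they guide silencing of transposons in fetal and newborn germ cells, and after birth a growing share comes from transcribed regions with few transposons. None of the deposited intervals carries a gene, repeat or small RNA class name, so which kind of small RNA each locus gave was not measured here.

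The libraries came from testes of C57BL/6 mice that were WT or KO for Dnmt3l. At P0, the day of birth, enriched neonatal germ cells gave 1 WT and 1 KO library. At P8, THY1+ cells, a fraction rich in spermatogonial stem and progenitor cells, gave 2 WT and 2 KO libraries. All 6 were made from RNA of 15 to 36 nt and share 1 batch label. The labels do not say whether replicates were separate animals or pools, so their spread may be technical. Age goes with the cell preparation, and their effects cannot be told apart. In such bulk samples, fewer cells of a type and less RNA per cell also cannot be told apart.

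Reads in the non-overlapping set numbered 6118695 for WT P0, 4370237 for KO P0, 6119690 and 5561722 for WT P8, and 4907947 and 4839837 for KO P8. Chi-square per degree of freedom between replicates at P8 was 2.72 in WT and 3.12 in KO, more than counting noise gives for independent reads. The columns of a pair are therefore not copies of each other. Whether a pair came from 1 library sequenced again cannot be told, since the handling of reads with several matches is not given. Levels are given as CPM, reads per 1000000 reads of this set, scaled across the 6 libraries with edgeR's trimmed mean of M-values (TMM). Where 2 values are given together, WT comes before KO at P0, and replicate 1 before replicate 2 at P8.

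Summed over the 10 loci, the level was 3954 CPM in the WT P0 library and 4032 CPM in the KO P0 library. At P8 it was 2409 and 2299.9 CPM in the WT libraries and 8009 and 7913 CPM in the KO libraries. The KO P8 libraries were the highest of the 6 and the WT P8 libraries the lowest. The mean at P8 was 2354 ± 76.9 CPM for WT and 7961 ± 68.2 CPM for KO (SD of 2 libraries each), a ratio of 3.38 that ranged from 3.29 to 3.48 over the pairs of single libraries. At P0 the KO to WT ratio of the same sum was 1.02 (95% counting interval 1.00 to 1.04). That ratio lay below 1, at 0.942, when libraries were scaled by total reads.

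Of the 105 intervals, 66 passed the read filter of the P8 fit and 39 did not. Among the 66, edgeR's quasi-likelihood fit to the whole table called 54 higher and 3 lower in KO at an adjusted p under 0.05, with 9 not called. Over all 23197 tested intervals the same fit called 22.5% higher and 20.1% lower, and fitted to every deposited row 22.9% and 21.0%. The median log2 fold change of KO against WT was 1.54 in the loci and -0.01 over all tested intervals, and the values in the loci ran from -1.67 to 6.59. Both KO P8 libraries lay above both WT P8 libraries at 57 of the 66 tested intervals and below them at 4, where 34.3% and 37.5% of all tested intervals did so. Since the windows were chosen on this contrast, nothing is read from these shares. In the authors' deposited table of log2 CPM, 65 of the 66 tested intervals had the same sign of difference. That table holds the same P8 libraries on another scale, so the match is no independent check.

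The size of the P8 difference varied among the members. A mean of at least 10 CPM over the 6 libraries was reached by 42 intervals, and KO exceeded WT at least 2-fold at P8 in 37 of them. Of these 42, 16 were at least 4-fold and 6 at least 20-fold higher, and the median ratio was 3.06. Of all 11434 intervals of that level, 15.6% were at least 2-fold, 5.23% at least 4-fold and 0.673% at least 20-fold higher, with a median ratio of 1.00, and nothing is read from the gap since the windows were chosen on it. The 6 with at least 20-fold lay in the chromosome 8, 9 and 16 loci. The mean over 6 libraries includes the KO P8 pair, so some intervals reached 10 CPM only through their KO P8 level. Among them was chr9:102404008-102406487, with 0 and 0.512 CPM at P0 and 2.28 and 1.87 CPM in the WT P8 pair.

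**Figure D1:**
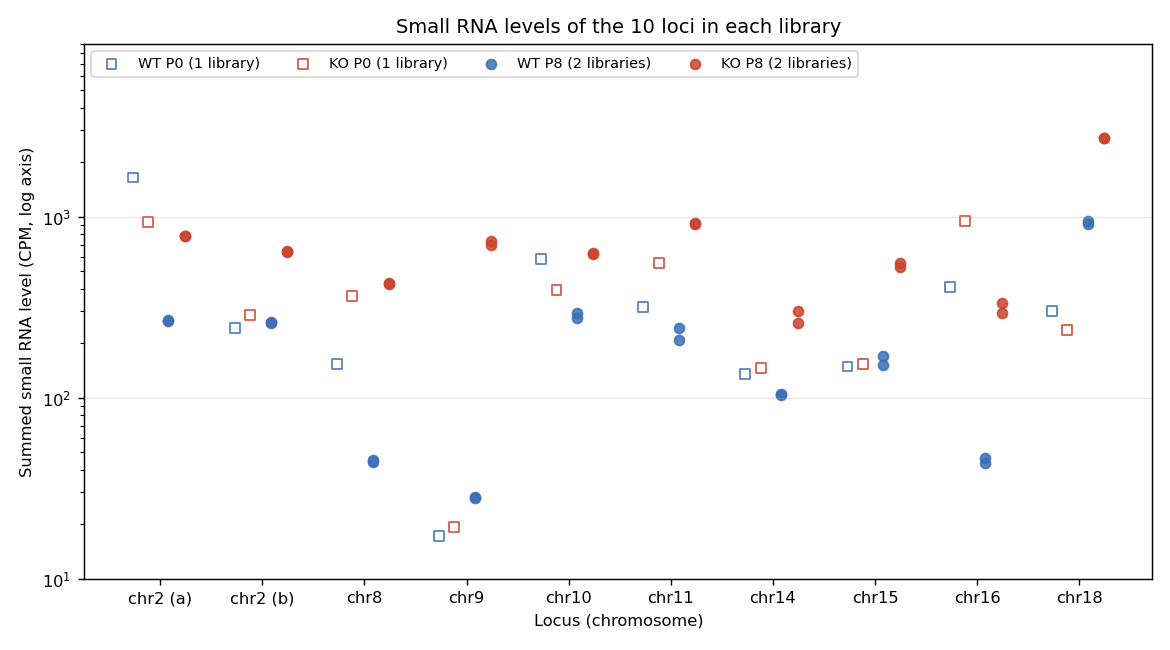
Summed small RNA level of each locus in each library, in CPM on a log axis, with P0 libraries as open squares and P8 libraries as filled circles, WT in blue and KO in red; chr2 (a) starts at 30.36 Mb and chr2 (b) at 180.7 Mb. At all 10 loci both KO P8 circles lie above both WT P8 circles, while the P0 squares lie in either order.

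The P0 libraries were not used to choose the windows. At P0 the KO level was above the WT level at 4 loci (chromosomes 8, 11 and 16, and the chr2:180700001-180890000 locus), with counting intervals that exclude 1. It was below the WT level at 3 loci (chromosomes 10 and 18, and the chr2:30360001-30620000 locus), and at the other 3 (chromosomes 9, 14 and 15) the interval includes 1. With 1 library per genotype at P0 there is no replicate check and no test of genotype, and intervals cover counting error only. Among the 42 intervals of the loci with at least 100 reads over the 2 P0 libraries, 11 had a KO to WT ratio whose interval lay above 1 and 16 had one below 1. That is 26.2% and 38.1%, against 23.7% and 30.7% of all 14108 such intervals. At least 2-fold higher in KO at P0 were 5 of the 42, against 9.87% of all, and at least 2-fold lower were 3 of the 42, against 4.3%. Scaled by total reads, the count at least 2-fold lower was 7 of the 42, against 882 of 14108, and with a minimum of 50 reads it was 6 of 51, against 1099 of 20478. The median log2 ratio at P0 was -0.06 in the loci and -0.11 over all. The 5 intervals with at least 2-fold more in KO at P0 were 2 on chromosome 8, 1 on chromosome 11 and 2 on chromosome 16. All 5 had both KO libraries above both WT libraries at P8, as had 57 of the 66 tested intervals of the loci. That order was also found at 10 of the 11 intervals above 1 at P0 and at 14 of the 16 below 1. The windows were chosen on the P8 order, so nothing is read from its match with P0.

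**Figure D2:**
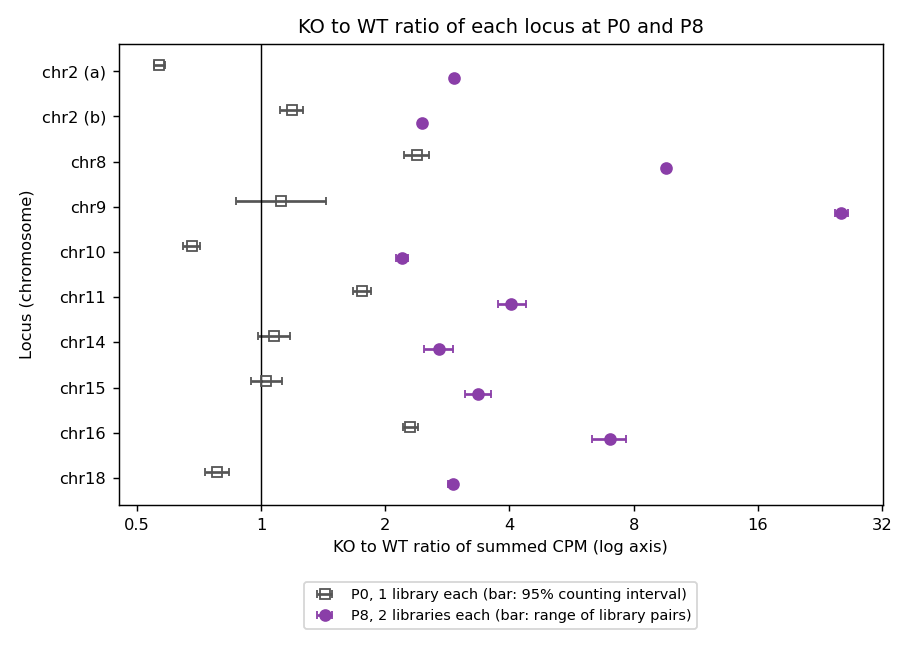
KO to WT ratio of each locus on a log axis, at P0 (open squares, bar for the 95% counting interval, 1 library each) and at P8 (filled circles, bar for the range over pairs of single libraries, 2 each). All P8 ratios lie between 2.19 and 25.5, and P0 ratios between 0.566 and 2.38.

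The chromosome 9 locus had the highest ratio at P8 and the lowest summed level at P0. Its sum was 17.2 CPM in the WT P0 library, 19.3 CPM in the KO P0 library, 28.4 and 27.9 CPM in the WT P8 pair, and 738 and 698 CPM in the KO P8 pair. The 2 KO P8 libraries stood far above the other 4. The P8 means were 28.1 ± 0.335 and 718 ± 28.4 CPM (SD of 2 libraries each), a ratio of 25.5, and the P0 ratio was 1.12 (0.870 to 1.44). With the longest intervals taken first the P8 ratio was 40.5. The locus held 4 intervals, of which 3 were above 10 CPM. The short interval chr9:102420406-102423443, of 3.04 kb, had 5.97 CPM in the WT P0 library, 8.19 in the KO P0 library, 22.8 and 22.7 CPM in the WT P8 pair, and 517 and 489 CPM in the KO P8 pair. Those KO P8 levels amount to 166 CPM per kb, the densest of the 105 intervals, and make up 69.7% of the gain of the locus in KO. Within it, the deposited row chr9:102421406-102422286, of 881 bp, held 52.0% of the reads, with 31, 24, 57 and 64 reads in the 2 P0 and 2 WT P8 libraries and 1120 and 1002 reads in the KO P8 pair. The long interval chr9:102369139-102396566, of 27.4 kb, had 10.6 and 10.4 CPM in WT and KO P0, 3.24 and 3.12 CPM in the WT P8 pair, and 175 and 159 CPM in the KO P8 pair. Its P8 ratio of 52.6 was the highest of the intervals with at least 10 CPM. Reads were spread along it, and its left row chr9:102369321-102375207 had 13, 17, 3 and 1 reads in the P0 and WT P8 libraries, against 173 and 154 in the KO P8 pair. Between them, chr9:102404008-102406487 had 0 and 3 reads at P0, 12 and 9 in the WT P8 pair, and 180 and 194 in the KO P8 pair.

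On chromosome 8 the sum was 153 CPM in the WT P0 library, 365 CPM in the KO P0 library, 45.1 and 44.1 CPM in the WT P8 pair, and 429 and 425 CPM in the KO P8 pair. KO was above WT at both ages, and the gap was wider at P8. The ratio was 9.57 at P8, from 44.6 ± 0.700 and 427 ± 3.03 CPM (SD of 2 libraries each), and 2.38 at P0 (2.22 to 2.55). Over every deposited row of the window, overlaps included, the P8 ratio was 5.50. In KO the leading interval was not the same at both ages. At P0 most reads of both genotypes fell in chr8:13745616-13759273, with 114 CPM for WT and 270.0 CPM for KO, a ratio of 2.37 (2.19 to 2.56). That interval had 15.8 and 15.6 CPM in the WT P8 pair and 45.2 and 51.9 CPM in the KO P8 pair, below its P0 level in both genotypes. The neighbouring chr8:13763996-13770926 had 16.8 and 23.6 CPM at P0, 17.3 and 10.6 CPM in the WT P8 pair, and 350.1 and 335 CPM in the KO P8 pair. Its P8 ratio was 24.5 and its P0 ratio 1.40 (1.11 to 1.78), and it accounted for 86.0% of the gain of the locus. The third, chr8:13790502-13799145, was 3.60-fold higher in KO at P0 (3.00 to 4.34) and 2.57-fold higher at P8.

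The chromosome 16 locus had the deepest drop between P0 and P8 of the 10 in both genotypes. Its sum was 410.1 CPM in the WT P0 library and 942 CPM in the KO P0 library, and at P8 it was 46.5 and 43.7 CPM in WT and 336 and 295 CPM in KO. KO was above WT at both ages. The P8 ratio was 6.99, from 45.1 ± 1.94 and 315 ± 29.1 CPM (SD of 2 libraries each), and the P0 ratio 2.30 (2.20 to 2.40). The gain at P8 was shared among several intervals, the highest share being 25.7% at chr16:31246725-31294554. That interval had 197 and 318 CPM at P0, 15.6 and 15.2 CPM in the WT P8 pair, and 92.6 and 77.1 CPM in the KO P8 pair, a P8 ratio of 5.51 and a P0 ratio of 1.62 (1.51 to 1.73). At the right end of the window, chr16:31389335-31418824 had 50.5 CPM in the WT P0 library against 300.4 CPM in the KO P0 library, the highest P0 ratio of the named intervals at 5.94 (5.35 to 6.61). It had 11.6 and 10.4 CPM in the WT P8 pair, and 80.8 and 71.4 CPM in the KO P8 pair. At the left end, chr16:31180760-31205042 was 3.34-fold higher in KO at P0 (3.01 to 3.72) and 4.34-fold at P8.

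Intervals in the middle of the chromosome 16 window behaved differently. At chr16:31307679-31348988 the P0 libraries had 23.1 and 26.3 CPM, a ratio of 1.14 (0.918 to 1.41). The same interval had 3.43 and 2.08 CPM in the WT P8 pair and 73.7 and 66.0 CPM in the KO P8 pair, a ratio of 25.4. Its neighbour chr16:31352391-31378272 had 9.01 and 11.3 CPM at P0, 2.09 and 1.25 CPM in the WT P8 pair, and 44.5 and 38.6 CPM in the KO P8 pair, a ratio of 24.8. Among the intervals of the locus with at least 10 CPM, KO P8 exceeded KO P0 only at these 2. By contrast chr16:31216532-31244293 had 6.47 and 6.25 CPM in the WT P8 pair and 6.63 and 5.44 CPM in the KO P8 pair, so that the genotypes overlapped within a window chosen for a difference. It had 72.2 and 91.5 CPM at P0.

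On chromosome 11 the sum was 316 and 556 CPM in WT and KO P0, 242 and 209 CPM in the WT P8 pair, and 919 and 907 CPM in the KO P8 pair. The P8 means were 226 ± 23.0 and 913 ± 8.60 CPM (SD of 2 libraries each), a ratio of 4.04, and the P0 ratio was 1.76 (1.67 to 1.85). The P0 difference came from 1 of its 3 abundant intervals. At chr11:94017473-94063338 the P0 libraries had 181 and 452 CPM, a ratio of 2.50 (2.35 to 2.66). The P8 libraries had 132 and 109 CPM in WT and 668 and 651 CPM in KO, a ratio of 5.49, which made up 78.6% of the gain of the locus. The other two were lower in KO at P0, with ratios of 0.754 (0.652 to 0.870) at chr11:94098995-94137654 and 0.812 (0.702 to 0.938) at chr11:94144272-94167870. At P8 they were 2.26-fold and 3.02-fold higher in KO, with both KO libraries above both WT libraries. Over every deposited row of the window, overlaps included, the P0 ratio of the locus was 1.09.

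The chr2:180700001-180890000 locus had 242 and 286 CPM at P0, 259 and 262 CPM in the WT P8 pair, and 635 and 644 CPM in the KO P8 pair. Both KO P8 libraries were above the other 4. The P8 ratio was 2.45, from 261 ± 2.23 and 639 ± 6.60 CPM (SD of 2 libraries each), and the P0 ratio 1.18 (1.11 to 1.26). Its intervals followed different courses with age. At chr2:180702184-180725160 the level was 17.7 and 17.6 CPM at P0, 81.3 and 73.5 CPM in the WT P8 pair, and 241 and 240.1 CPM in the KO P8 pair, so that both genotypes were higher at P8 and KO by more. At chr2:180821827-180831584 it was 149 and 203 CPM at P0, 113 and 114 CPM in the WT P8 pair, and 250.4 and 264 CPM in the KO P8 pair. Next to it lay chr2:180833323-180837665, which had 33.9 and 40.6 CPM in the WT P8 pair and 24.6 and 30.9 CPM in the KO P8 pair. This was the only interval of at least 10 CPM in the 10 loci with both KO P8 libraries below both WT libraries, at a ratio of 0.745, and it was also lower in KO at P0 (0.615, 0.462 to 0.811).

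At the chromosome 14 and 15 loci the P0 sums of the genotypes could not be told apart within counting error, although single intervals differed. On chromosome 14 the sum was 135 and 146 CPM at P0, a ratio of 1.08 (0.985 to 1.18), with 105 and 103 CPM in the WT P8 pair, and 302 and 259.8 CPM in the KO P8 pair. The KO replicates differed from each other more than the WT replicates did, with means of 104 ± 1.02 and 281 ± 29.6 CPM (SD of 2 libraries each) and a ratio of 2.70. Its 3 abundant intervals, chr14:34329463-34357718, chr14:34295142-34311122 and chr14:34262848-34291834, had close P8 ratios of 2.67, 2.59 and 2.46. Their P0 ratios lay on both sides of 1, at 1.17 (1.06 to 1.30), 0.930 (0.672 to 1.28) and 0.724 (0.561 to 0.929). On chromosome 15 the sum was 149 and 153 CPM at P0, a ratio of 1.03 (0.944 to 1.12), with 169 and 153 CPM in the WT P8 pair, and 529 and 552 CPM in the KO P8 pair. Both KO P8 libraries were above the other 4, at a P8 ratio of 3.36 from 161 ± 11.9 and 540.4 ± 16.1 CPM (SD of 2 libraries each). A single interval, chr15:83094136-83118474, held 81.3% of the gain, with 105 and 101 CPM at P0, 113 and 96.8 CPM in the WT P8 pair, and 400.0 and 426 CPM in the KO P8 pair. Of its reads, 92.6% fell in the row chr15:83100279-83117886. The smaller intervals chr15:83131160-83141170 and chr15:83126341-83128222 had P8 ratios of 2.31 and 2.37, and P0 ratios of 1.33 (1.05 to 1.69) and 1.32 (0.984 to 1.76).

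**Figure D3:**
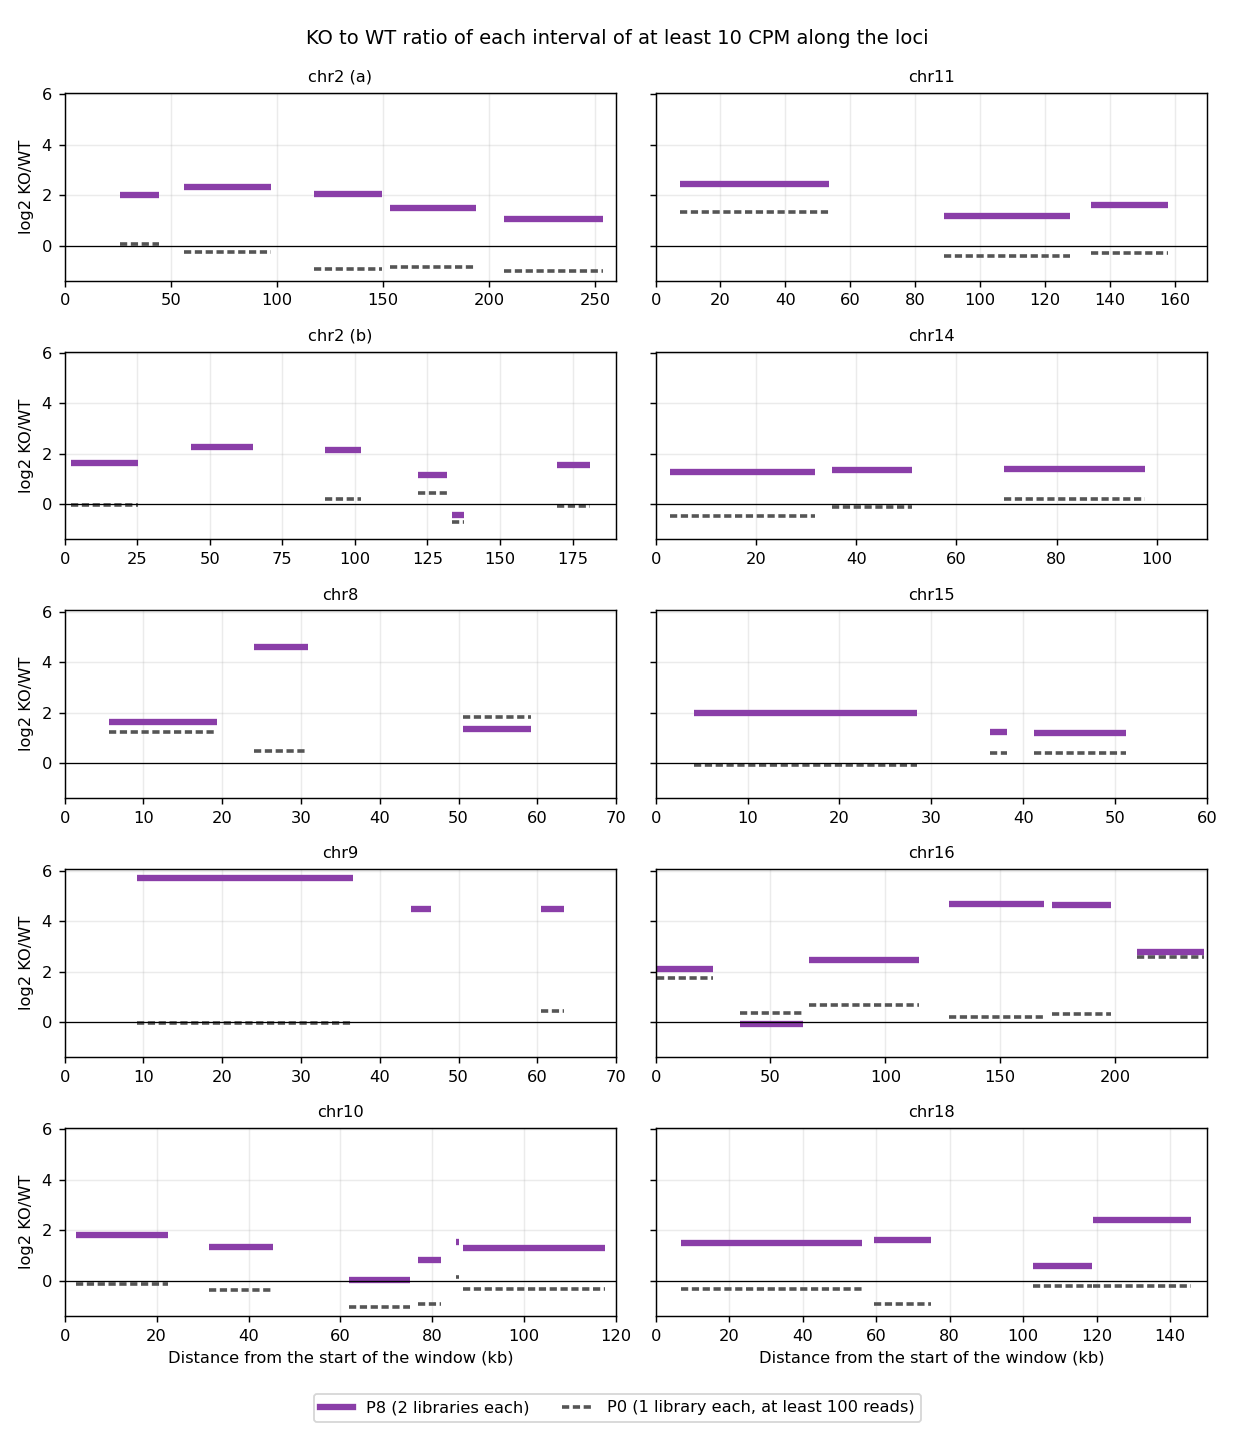
Log2 KO to WT ratio of each interval of at least 10 CPM along the 10 windows, with the distance from the start of the window in kb, at P8 (purple, 2 libraries each) and at P0 (dashed grey, 1 library each, drawn where the 2 P0 libraries had at least 100 reads). Purple lines lie above 1 at 37 of the 42 intervals, and grey lines lie on both sides of 0, also within a window.

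At 3 loci the summed KO level was below WT at P0 and above it at P8. The chr2:30360001-30620000 locus had the highest summed WT level of the 10 at P0, with 1647 CPM in WT and 932 CPM in KO, and at P8 it had 268 and 266 CPM in WT and 787 and 783 CPM in KO. WT was 1.77-fold above KO at P0 (1.71 to 1.82), and KO was 2.94-fold above WT at P8, from 267 ± 1.41 and 785 ± 2.36 CPM (SD of 2 libraries each). The KO P8 level was 0.477 of the WT P0 level. The most abundant interval, chr2:30513248-30553796, had 1078 and 608 CPM at P0, 149 and 140.1 CPM in the WT P8 pair, and 412 and 395 CPM in the KO P8 pair. Its row chr2:30547648-30549720 covered 5.11% of its length and held 50.03% of its reads. That row had a P0 ratio of 0.598 and a P8 ratio of 2.68, close to the ratios of 0.529 and 2.88 in the rest of the interval. At chr2:30567206-30613812 the P0 ratio was 0.504 (0.463 to 0.547) and the P8 ratio 2.08. At chr2:30416471-30457215 they were 0.831 (0.751 to 0.918) and 4.95, and at chr2:30477680-30509369 they were 0.529 (0.464 to 0.602) and 4.16. The order of the genotypes was thus turned between the ages at each of these 4 neighbouring intervals. It was not at chr2:30386001-30404365, the other interval of the locus with at least 10 CPM. The P0 ratio there was 1.04, with an interval that includes 1 (0.765 to 1.40), and the P8 ratio 4.03. The difference between the ages was not tested.

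On chromosome 10 the sum was 582 and 395 CPM at P0, 293 and 277 CPM in the WT P8 pair, and 629.8 and 621 CPM in the KO P8 pair. WT was 1.47-fold above KO at P0 (1.40 to 1.55), and KO was 2.19-fold above WT at P8, from 285 ± 11.3 and 626 ± 6.01 CPM (SD of 2 libraries each), the smallest P8 ratio of the 10 loci. The chromosome 10 locus was the most divided, with 25 intervals, of which 19 were tested, 11 called higher and 3 called lower. Over all tested intervals 22.5% were called higher and 20.1% lower, and nothing is read from the counts of this locus. The 3 called lower on chromosome 10 were short neighbours. At chr10:81208101-81209058 there were 53 and 39 reads in the WT P8 pair and 22 and 16 in the KO P8 pair. At chr10:81209501-81210047 there were 45 and 49 reads in the WT P8 pair and 24 and 20 in the KO P8 pair. At chr10:81211085-81211571 there were 21 and 24 reads in the WT P8 pair and 9 and 2 in the KO P8 pair. The next interval, chr10:81211969-81225085, had 209.6 and 102 CPM at P0 but 49.5 and 43.9 CPM in the WT P8 pair and 47.9 and 48.2 CPM in the KO P8 pair, a ratio of 1.03. Farther out on both sides, each interval of at least 10 CPM was higher in KO at P8, while some shorter ones with few reads overlapped between genotypes or, at chr10:81150791-81151063, had KO below WT (6 and 2 reads against 1 and 1). To the right, chr10:81236731-81267496 had 102 and 100.1 CPM in the WT P8 pair and 253 and 244 CPM in the KO P8 pair, with a P0 ratio of 0.807 (0.749 to 0.869). To the left, 3 short intervals had few WT reads: chr10:81172782-81174268 had 2 and 5 reads in the WT P8 pair against 51 and 58 in the KO P8 pair, and chr10:81176608-81177895 had 2 and 5 against 61 and 65. Between them chr10:81175835-81176323, with the highest fitted log2 fold change of the loci, had 0 reads in both WT P8 libraries and 10 and 11 reads in the KO P8 pair, so that its fitted value depends on the prior count.

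The chromosome 18 locus had the highest summed level at P8. Its sum was 302 and 236 CPM at P0, 952 and 913 CPM in the WT P8 pair, and 2706 and 2729 CPM in the KO P8 pair. Here both genotypes were above their P0 level at P8, and KO by more. WT was 1.28-fold above KO at P0 (1.20 to 1.36), and KO was 2.91-fold above WT at P8, from 932 ± 27.5 and 2717 ± 16.3 CPM (SD of 2 libraries each). The interval chr18:38276932-38326039, of 49.1 kb, held 88.1% of the gain, with 247 and 197 CPM at P0, 859 and 824 CPM in the WT P8 pair, and 2399.9 and 2429 CPM in the KO P8 pair. Its P0 ratio was 0.799 (0.743 to 0.858). Along it the P8 ratio was not even, since the row chr18:38307563-38319919, with 52.0% of the reads, had a ratio of 3.30, while chr18:38282135-38287643, with 159 and 137 reads in the WT P8 pair and 139 and 115 in the KO P8 pair, had 1.06. At chr18:38329452-38345044 the P0 ratio was 0.527 (0.404 to 0.681) and the P8 ratio 3.11. At chr18:38388889-38415565 the P0 ratio was 0.871, with an interval that includes 1 (0.644 to 1.17), and the P8 ratio 5.32.

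Rows nested in the named intervals showed that 1 interval can hold stretches of unlike ratio. Such rows were picked for their extremes and are given as reads. In chr10:81152443-81172398, with 31.2 and 28.7 CPM at P0, 45.7 and 45.8 CPM in the WT P8 pair and 166 and 154 CPM in the KO P8 pair, the left row chr10:81152570-81157407 had 96, 33, 157, 166, 150 and 128 reads in the WT P0 library, KO P0, WT P8 and KO P8. There the P8 ratio was 1.06. The right row chr10:81162462-81172313 had 125, 92, 30, 27, 435 and 395 reads in the same order, a P8 ratio of 18.1. The higher KO level of that interval at P8 thus lay in its right part. In chr16:31389335-31418824 the left row chr16:31389367-31395096 had 45, 69, 2, 2, 35 and 27 reads, a P0 ratio of 2.32 and a P8 ratio of 19.2. The right row chr16:31416783-31417912 had 8 and 169 reads at P0, a ratio of 32.0 (15.9 to 75.4), but 0 reads in both WT P8 libraries, against 0 and 2 for KO P8. The left row thus had more KO reads at both ages, and the right row at P0 without such an excess at P8. In chr11:94017473-94063338 the row chr11:94025414-94052614 held 53.3% of the reads and had a P0 ratio of 0.914 (0.803 to 1.04) and a P8 ratio of 4.69. The reads outside it had a P0 ratio of 3.56 (3.30 to 3.85) and a P8 ratio of 9.14.

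**Figure D4:**
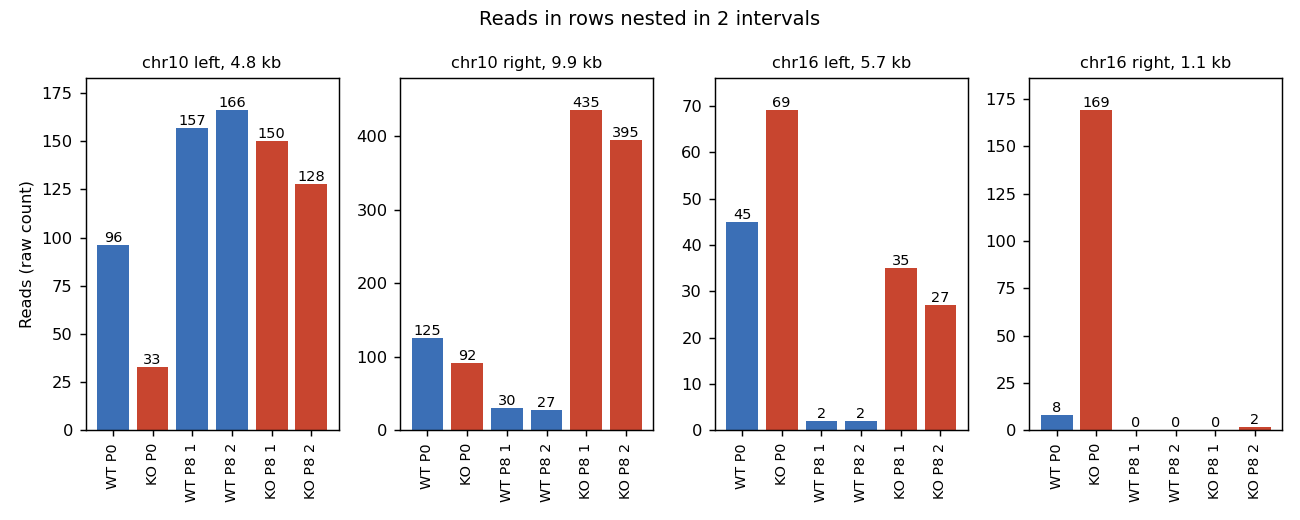
Raw read counts in each library for 4 rows nested in 2 intervals, a left and a right row of chr10:81152443-81172398 and of chr16:31389335-31418824, WT in blue and KO in red. The left chromosome 10 row has 157 and 166 reads in the WT P8 pair against 150 and 128 in the KO P8 pair and the right row 30 and 27 against 435 and 395, while the right chromosome 16 row has reads almost only in KO P0 (169).

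Levels were also set against age within each genotype. In WT, 6 of the 10 loci were lower at P8 than at P0, by 9.10-fold on chromosome 16, 6.16-fold at chr2:30360001-30620000, 3.44-fold on chromosome 8, 2.04-fold on chromosome 10, 1.40-fold on chromosome 11 and 1.30-fold on chromosome 14. In KO, 2 of the 10 were lower, by 2.99-fold on chromosome 16 and 1.19-fold at chr2:30360001-30620000. The other 8 KO loci were higher at P8, from 1.17-fold on chromosome 8 to 37.2-fold on chromosome 9, and these 8 also exceeded the WT P0 level. Among the 41 intervals of the loci tested at P8 with at least 100 reads at P0, 73.2% were lower at P8 in WT and 26.8% in KO, against 56.7% and 52.1% of all 12242 such intervals. The windows were chosen partly for low WT and high KO levels at P8, so these shares are no independent result. The age ratios also depend on the scaling, as TMM factors were 1.45 and 1.34 at P0 and 0.829 to 0.864 at P8. Scaled by total reads, 9 of the 10 loci were lower at P8 in WT and 6 of the 10 were higher in KO.

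The intervals just inside and outside the windows give the edges of the choice. Left of the chr2:30360001-30620000 window, chr2:30324908-30354665 had 136 ± 7.20 CPM in the WT P8 pair and 147 ± 4.82 CPM in the KO P8 pair (SD of 2 libraries each), a ratio of 1.08, while the first interval inside, chr2:30360132-30364337, had a ratio of 3.26. At the chr2:180700001-180890000 window the intervals across the edges had ratios of 1.84 on the left (chr2:180683533-180700091) and 0.601 on the right (chr2:180881259-180895931), against 3.11 and 2.95 at the first intervals inside. Right of the chromosome 8 window chr8:13830447-13831215 had a ratio of 0.907, and right of the chromosome 14 window chr14:34383325-34393105 had 0.873. The other nearest intervals outside or across an edge had means of at most 5.79 CPM in either genotype. At some of these KO was still above WT without overlap. The interval chr16:31175454-31178029, wholly outside its window, had a ratio of 4.20 against 4.34 at the first interval inside. The interval chr10:81268075-81272034, which crosses the right edge of its window, had 2.95 against 2.46 inside. The KO excess therefore did not end at the left edge of the chromosome 16 window.

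The lengths of the intervals were also set beside those of the whole table. Deposited rows in the windows had a median length of 1337 bp against 946 bp in the whole table, and lay at 2.20 rows per covered kb against 1.49. The tested non-overlapping intervals were shorter in the loci, with a median of 9919 bp against 14334 bp over all. The tested intervals of the loci had a median level of 26.3 CPM against 9.49 CPM over all tested intervals. That level includes the KO P8 libraries on which the windows were chosen, so nothing is read from the gap. The lengths also depend on the choice, since only intervals wholly inside a window were kept. How the authors made the intervals is not given in the sources used here, and neither is the placing of reads that match several sites, so a level can include reads shared with other copies.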

How the data were processed

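The authors deposited raw read counts of small RNA over genomic intervals, 1 column per library, and log2 CPM with TMM factors for the P8 libraries. Per the submitters' processing notes, the build was GRCm39 and the tools were bedtools, Bowtie 1.1.1, TopHat2 2.1.1, cutadapt 1.13 and FastQC 0.10.1. Not given in the sources used here are the step each served, how reads with several matches were handled and where the intervals came from.

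Of the deposited rows, 62 repeated the name of another and were dropped. Non-overlapping intervals were taken by the highest mean CPM first, without regard to genotype. TMM factors over the 6 libraries were computed after edgeR's filterByExpr. The P8 fit was edgeR 4.0.16 (R 4.3.3), glmQLFit and glmQLFTest, two-sided, with no block, over the 4 P8 libraries, adjusted by Benjamini-Hochberg over the whole table with a threshold of 0.05. The fit was also run on simulated counts with the same fixed dispersion for every interval. That setting is simpler than the data, so nothing is read from it about the calls here. DESeq2 1.42.0 was an alternative. P0 ratios carry exact conditional binomial 95% intervals (SciPy 1.17.1), which cover no more than counting error, as the reads carry no molecular identifiers.

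The members and lists were chosen with earlier results of these data known. Intervals are named as the 3 with the highest mean CPM in each locus and the first inside and outside each window. Nested rows and other named intervals were chosen after their values were seen. Nested rows had at least 100 reads and, beside the shortest row with at least 50% of an interval's reads, at most 50% of its length. Genes, sequences and marker miRNAs were not looked up here, because the annotation at hand is of another genome build, so the labelled cell type was not checked.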

Additional observations from a re-analysis of the deposited data

Results flagged for a closer look

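At some loci the order of the genotypes was opposite at the 2 ages. KO was below WT at P0, with a counting interval that excludes 1, while both KO libraries were above both WT libraries at P8. The difference between the ages was not tested, since P0 has 1 library per genotype, and the P8 side was used to choose the windows. Of the 42 intervals of the loci with at least 100 reads at P0, 38.1% had a P0 interval below 1, against 30.7% of all 14108. The condition was met by 14 of the 42, while 10 had KO above WT at both ages. These 2 counts were not made over all 14108 intervals, so whether they are unusual cannot be told. Nothing particular to these loci is read from the flag.

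For whole loci, the P0 ratio of KO to WT was 0.566 at chr2:30360001-30620000, 0.679 at chr10:81150001-81270000 and 0.782 at chr18:38270001-38420000. Among the named intervals of the first of these it was 0.565 at chr2:30513248-30553796, 0.504 at chr2:30567206-30613812 and 0.831 at chr2:30416471-30457215. On chromosome 10 it was 0.807 at chr10:81236731-81267496. There chr10:81211969-81225085 did not meet the condition, with a P8 ratio of 1.03, nor did chr10:81152443-81172398, with a P0 interval that includes 1. On chromosome 18 it was 0.799 at chr18:38276932-38326039 and 0.527 at chr18:38329452-38345044.

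Single intervals met the same condition in loci whose P0 sum did not. These were chr11:94098995-94137654 with a P0 ratio of 0.754, chr11:94144272-94167870 with 0.812 and chr14:34262848-34291834 with 0.724.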

How the results depend on the processing

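The P8 ratio of the summed loci was 3.25 when the longest intervals were taken first and 3.11 over every deposited row, and ran from 3.31 to 3.46 with 1 replicate left out. The 70 recomputed single-locus P8 ratios were all above 1 (1.91 to 40.5), and 2 moved by over 1.5 times, to 5.50 on chromosome 8 over every deposited row and to 40.5 on chromosome 9 with longest first. The P0 ratio of the sum, 1.02, was 1.00 with longest first, 0.942 under total-read scaling and 0.842 over every deposited row. The number of members at least 2-fold lower at P0 went from 3 of 42 to 7 under total-read scaling and to 6 of 51 with a minimum of 50 reads. Over all intervals it went from 606 of 14108 to 882 and to 1099 of 20478. Total-read scaling, chosen for the age ratios after seeing the data, gave P8 to P0 ratios of the sum of 0.353 in WT and 1.23 in KO, in place of 0.595 and 1.97. It turned the WT ratio to 0.640 at chr2:180700001-180890000, 0.969 on chromosome 9 and 0.642 on chromosome 15, and the KO ratio to 0.726 on chromosome 8 and 0.983 on chromosome 10. The cause of these changes was not tested.

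Over all non-overlapping intervals edgeR called 5227 higher and 4651 lower in KO, edgeR with total-read scaling 4715 and 5367, DESeq2 3200 and 2441, edgeR without a read filter 3516 and 2351, and with 1 replicate left out 3566 to 4842 and 3029 to 4416. The lowest came without WT P8 replicate 1, and without WT P8 replicate 2 the lower calls were 3071. Over all deposited rows the counts were 56632 and 51910, with total-read scaling 54651 and 54097, with DESeq2 32216 and 26107, without a filter 31246 and 24587, and with 1 replicate left out 34950 to 52620 and 29535 to 45004. The lowest again came without WT P8 replicate 1. With the replicate number as a block, the counts were 5717 and 5301 for the non-overlapping set and 60573 and 57229 for all rows. The replicate pairs share only a number in the labels, and the replicate differences of WT and KO had a correlation of 0.366 across 9589 intervals, which are not independent. Depth limits the 39 members under the read filter, and 1 library per genotype limits P0.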
